A study of Komagataella phaffii GS115 with 6 samples.

Results

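Transcript levels of 3 genes annotated for translation or ribosomes were followed in Komagataella phaffii strain GS115, a yeast that can grow on methanol and is also known as Pichia pastoris. They are TMA10 (PAS_chr4_0407, a ribosome-associated protein), TEF4 (PAS_chr3_1071, annotated as the gamma subunit of translation elongation factor EF-1) and PAS_chr1-3_0151, a nucleolar protein of ribosomal RNA processing with no gene symbol. They are 3 of the 115 genes analysed here and were taken by their identifiers. All cells were labelled WT and were grown for 48 h in BMMY with 1% maltose (3 libraries) or in BMMY (3 libraries), a buffered rich medium that supplies methanol as carbon source. Both groups therefore had methanol. The study concerns maltose and recombinant collagen in this yeast, and the labels name no collagen construct in these cells. The labels do not say whether libraries came from separate cultures, so the spread between them may be technical.

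The authors had already selected these 115 genes for a difference between the same 6 libraries, at 1.0 or more in absolute log2 fold change. Of them, 56 were positive and 59 negative in the authors' deposited table. The contrast of maltose with BMMY chose the 3 genes, so its values are given as a description and not as a test. In the authors' deposited table the log2 fold changes, maltose over BMMY, were 1.01 for TMA10 (p-value 1.86e-13), 1.20 for TEF4 (3.89e-07) and 1.98 for PAS_chr1-3_0151 (7.76e-27). TMA10 lay just inside the selection, with the third smallest of the 56 positive values. Genes outside the selection were not analysed here.

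As background, protein synthesis needs ribosomes, which are assembled in the nucleolus from ribosomal RNA and ribosomal proteins, and elongation factors, which deliver charged transfer RNAs to them. In Saccharomyces cerevisiae the gamma subunit of EF-1, encoded by TEF4 and a paralogue, belongs to the complex that recharges EF-1 alpha with GTP after each delivery. S. cerevisiae TMA10 encodes a small protein found with ribosomes, of unknown function. Proteins of the Urb2/Npa2 family, in which the deposited domain annotation places PAS_chr1-3_0151, act in S. cerevisiae on early precursors of the large ribosomal subunit.

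The annotation ties the 3 genes to translation unevenly. TEF4 is the single gene of the 115 in the eggNOG class for translation and ribosome structure, while its COG and KOG classes are protein turnover and chaperones. The 4 domain matches listed for TEF4 were all to the N- or C-terminal glutathione S-transferase domain, the kind of domain found at the start of EF-1 gamma, and 0 were to the conserved EF-1 gamma domain. Its RefSeq gene model is 651 bases long. Whether it encodes a full EF-1 gamma was not tested. TMA10 and PAS_chr1-3_0151 were both in the eggNOG class of unknown function. TMA10 is short, at 312 bases, with 3 of the 115 genes shorter. PAS_chr1-3_0151 spans 3251 bases, and 1 of the 112 genes tested (mean FPKM 1 or more) is longer. FPKM is a read count scaled by gene length and library depth. For TMA10 and TEF4 the length implied by counts and FPKM together (312 and 651 bases) matched the RefSeq model, but for PAS_chr1-3_0151 it was 3191 bases, 60.2 below the span.

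The 6 libraries had implied depths of 35.3 to 76.1 M fragments. The 115 genes took 14.9% to 15.3% of them in maltose libraries and 6.83% to 10.1% in BMMY libraries. BMMY replicate 1 had the highest BMMY level in 47 of the 56 tested genes with positive fold changes. In bulk RNA, a change in part of the cells and a change in RNA per cell cannot be told apart.

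All 3 genes had higher FPKM in each maltose library than in any BMMY library, as did 44.6% of the 112 genes tested. That was 50 of the 56 tested genes with positive fold changes. By edgeR's quasi-likelihood fit to the counts, PAS_chr1-3_0151 was 3.05-fold higher with maltose, TEF4 1.79-fold and TMA10 1.56-fold, but with libraries set to equal FPKM sums their log2 fold changes were 0.71, 0.029 and -0.23, in that order. The fit called 3 of 3 higher at an adjusted p of 0.05, with 43.8% of the 112 genes called higher. Those were 49 of the 56 with positive fold changes. The genes were selected on this contrast, so nothing is read from these counts. The median log2 fold change of the 3 was 0.84, beside 0.80 over the 56 tested genes with positive values and -0.35 over all 112.

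**Figure D1:**
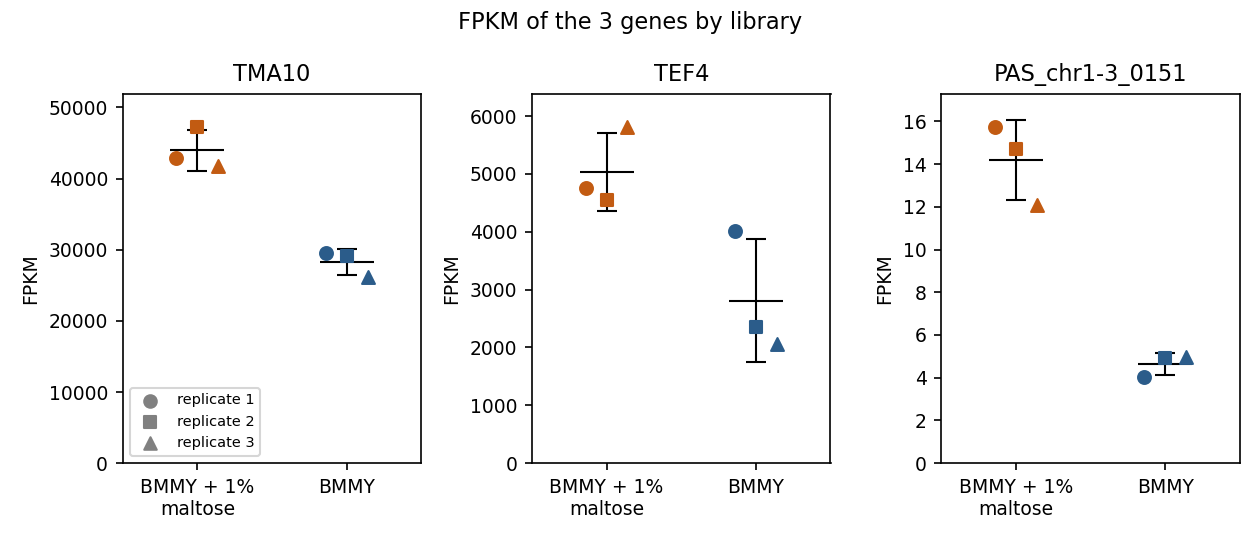
FPKM (linear axis from 0) of TMA10, TEF4 and PAS_chr1-3_0151 in 3 maltose libraries (left of each panel) and 3 BMMY libraries (right). Points are libraries, horizontal bars are means and error bars are SD. The groups do not overlap for any of the 3 genes on this scale, with the narrowest gap for TEF4, where BMMY replicate 1 (4020) lies near the maltose libraries; with equal FPKM sums in place of these depths the log2 fold change of TMA10 is -0.23.

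TMA10, the ribosome-associated gene, was the most abundant of the 115 transcripts per length in each of the 6 libraries. It had 42933, 47239 and 41794 FPKM in maltose replicates 1, 2 and 3, against 29516, 29107 and 26127 FPKM in BMMY replicates 1, 2 and 3. The lowest maltose library was 1.42-fold above the highest BMMY library, and BMMY replicate 1 did not stand apart. The means were 43989 ± 2872 FPKM with maltose and 28250 ± 1850 FPKM in BMMY (SD, n = 3 each), a log2 fold change of 0.64 (SE 0.14). This ranked 53rd of the 56 positive values, and equal FPKM sums turned it to -0.23.

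TMA10 alone took 1.34%, 1.47% and 1.30% of the implied depth in maltose replicates 1, 2 and 3, against 0.92%, 0.91% and 0.82% in BMMY replicates 1, 2 and 3. By read count TMA10 did not lead, since FDH1 had 649558 to 1644082 counts per library and was above TMA10 in each. By FPKM, which divides by gene length, the gene next below TMA10 was THI5 in the maltose libraries, at 30033 to 36225 FPKM. It was FDH1 in the BMMY libraries, at 11058 to 21781 FPKM. TMA10 stood 1.15-fold to 1.49-fold above THI5 with maltose and 1.36-fold to 2.36-fold above FDH1 in BMMY. Its counts per library, 436084 to 740743, leave a counting error of at most 0.15%, far under the spread between libraries (6.53% of the mean with maltose and 6.55% in BMMY). That spread was the fourth smallest of the 112 genes, with a pooled SD of 0.095 on the log2 FPKM scale, beside a median of 0.28.

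TEF4, annotated as an elongation factor gene, was also among the abundant transcripts of the table, ranked ninth of 115 by mean FPKM. It had 4749, 4553 and 5810 FPKM in maltose replicates 1, 2 and 3, against 4020, 2348 and 2057 FPKM in BMMY replicates 1, 2 and 3. BMMY replicate 1 was well above the other BMMY libraries, and the lowest maltose library was 1.13-fold above it. Means were 5037 ± 676.3 FPKM with maltose and 2808 ± 1060 FPKM in BMMY (SD, n = 3 each), with a log2 fold change of 0.84 (SE 0.27). The log2 fold change of TEF4 was 0.39 with TMM and 0.029 with equal FPKM sums. In edgeR it did not pass an adjusted p of 0.05 under either scaling.

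The spread of TEF4 in BMMY was 37.7% of its mean, against 13.4% with maltose. With BMMY replicate 1 left out, TEF4 was at 1.19 on the log2 scale (SE 0.13). The call was kept in that fit. It was lost without BMMY replicate 2 or without maltose replicate 3, each with a log2 fold change of 0.73. Across BMMY libraries TEF4 had a log2 SD of 0.51, beside a median of 0.37 over the 56 positive genes. What set BMMY replicate 1 apart was not tested.

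PAS_chr1-3_0151, the nucleolar gene, was the rarest of the 3 and had the widest difference between the media. It had 15.7, 14.7 and 12.1 FPKM in maltose replicates 1, 2 and 3, against 4.05, 4.94 and 4.96 FPKM in BMMY replicates 1, 2 and 3. The lowest maltose library was 2.44-fold above the highest BMMY library. Here BMMY replicate 1 was the lowest BMMY library, as in 3 of the 56 tested genes with positive fold changes. Means were 14.2 ± 1.88 FPKM with maltose and 4.65 ± 0.522 FPKM in BMMY (SD, n = 3 each), with a log2 fold change of 1.61 (SE 0.19), the seventh largest of the 56.

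The counts behind PAS_chr1-3_0151 were 2775, 2139 and 1362 in maltose replicates 1, 2 and 3, and 687, 1200 and 847 in BMMY replicates 1, 2 and 3. Counting error was 1.9% to 3.82% per library, under the spread between libraries of 13.2% with maltose and 11.2% in BMMY. Among the 56 positive genes, 3 had a lower mean FPKM. Ranked by FPKM within those 56, the gene was 51st to 54th in maltose libraries and 53rd to 55th in BMMY libraries. Within all 115 it was 71st to 77th with maltose and 101st to 102nd in BMMY, but the genes it passed include many that were selected for falling. TEF4 was at ranks 8 to 10 among the 115 in both media.

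**Figure D2:**
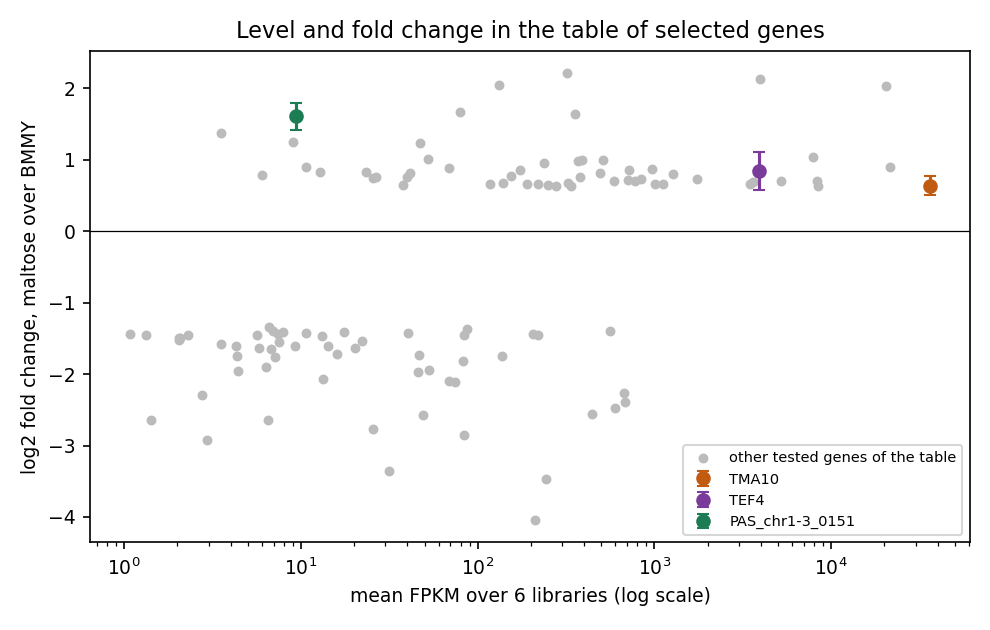
Mean FPKM over the 6 libraries (log axis) against the log2 fold change, maltose over BMMY, of the 112 tested genes; error bars on the 3 named genes are 1 SE. The empty band around 0 follows from the authors' selection. TMA10 is the rightmost point, near the lower edge of the positive genes (0.64, and -0.23 with equal FPKM sums), and PAS_chr1-3_0151 lies among the rarest positive genes at 1.61.

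Ratios of 2 genes within a library do not depend on how libraries are scaled. All 3 genes were selected on this contrast, so the ratios are a description, and pairs with other genes were not compared. TMA10 had 2729, 3212 and 3456 times the FPKM of PAS_chr1-3_0151 in maltose replicates 1, 2 and 3, against 7292, 5889 and 5267 times in BMMY replicates 1, 2 and 3. The groups did not overlap, and the ratio was lower in each maltose library. The mean log2 ratio differed by -0.97, with SDs of 0.17 among maltose libraries and 0.24 among BMMY libraries. That difference restates the gap between the log2 fold changes of the 2 genes, 0.64 and 1.61.

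The 2 abundant genes kept no such order between media. TMA10 had 9.04, 10.4 and 7.19 times the FPKM of TEF4 in maltose replicates 1, 2 and 3, against 7.34, 12.4 and 12.7 times in BMMY replicates 1, 2 and 3. The groups overlapped through BMMY replicate 1, and the mean log2 difference of -0.26 was under the SD within BMMY (0.45) and within maltose (0.27). The ratio of TEF4 to PAS_chr1-3_0151 was 302, 310 and 480 in maltose replicates 1, 2 and 3, against 993, 475 and 415 in BMMY replicates 1, 2 and 3. These groups overlapped as well, with maltose replicate 3 above 2 of the BMMY libraries.

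**Figure D3:**
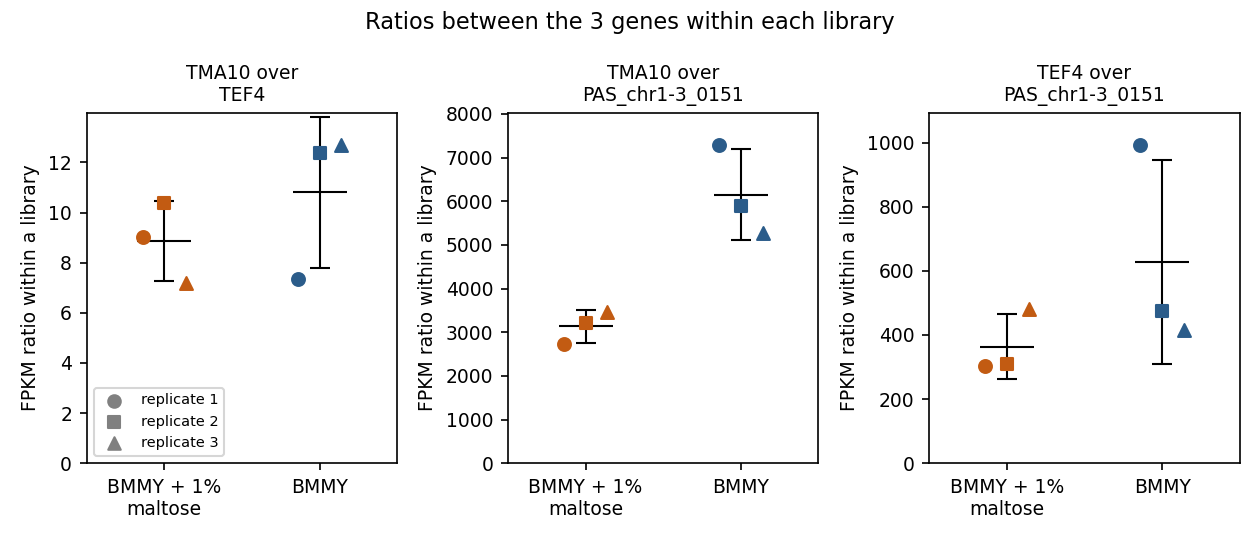
FPKM ratio of 2 genes within each library (linear axes from 0), with maltose libraries left of BMMY libraries; horizontal bars are means and error bars are SD. The groups separate for TMA10 over PAS_chr1-3_0151 (2729 to 3456 with maltose, 5267 to 7292 in BMMY) and overlap in the other panels. All 3 genes were selected on this contrast.

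The size of each fold change depended on how the libraries were scaled. TMM and median-of-ratios factors were computed from the 112 tested genes, and FPKM sums from the 115. All of these were selected for a difference between the same libraries. A call lost under such a scaling therefore does not show that a gene was unchanged. Against the implied depths, all fold changes moved by a median of 0.36 on the log2 scale with the scaling recovered from the authors' fold changes, 0.32 with median-of-ratios factors, -0.49 with TMM and -0.86 with equal FPKM sums. TMA10 was at 1.01, 0.96, 0.14 and -0.23 under these 4, in that order, and TEF4 at 1.20, 1.17, 0.39 and 0.029. Neither passed an adjusted p of 0.05 in edgeR with TMM or with equal FPKM sums. PAS_chr1-3_0151 was at 1.98, 1.92, 1.09 and 0.71 and passed in each. Over the table, calls higher and lower numbered 49 and 56 with the implied depths, 13 and 56 with TMM, 7 and 56 with equal FPKM sums, and 56 and 56 with the other scalings.

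Equal FPKM sums weigh TMA10 heavily, since it supplied 22.8% to 25.2% of the summed FPKM of the 115 genes in maltose libraries and 23.8% to 30.2% in BMMY libraries. TEF4 supplied 2.43% to 3.16% with maltose and 2.36% to 3.25% in BMMY. Among the 115 selected genes, then, TMA10 held a share in BMMY replicates 2 and 3 (30.2% and 30.0%) above that in any maltose library, while its share in BMMY replicate 1 (23.8%) lay within the maltose range.

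**Figure D4:**
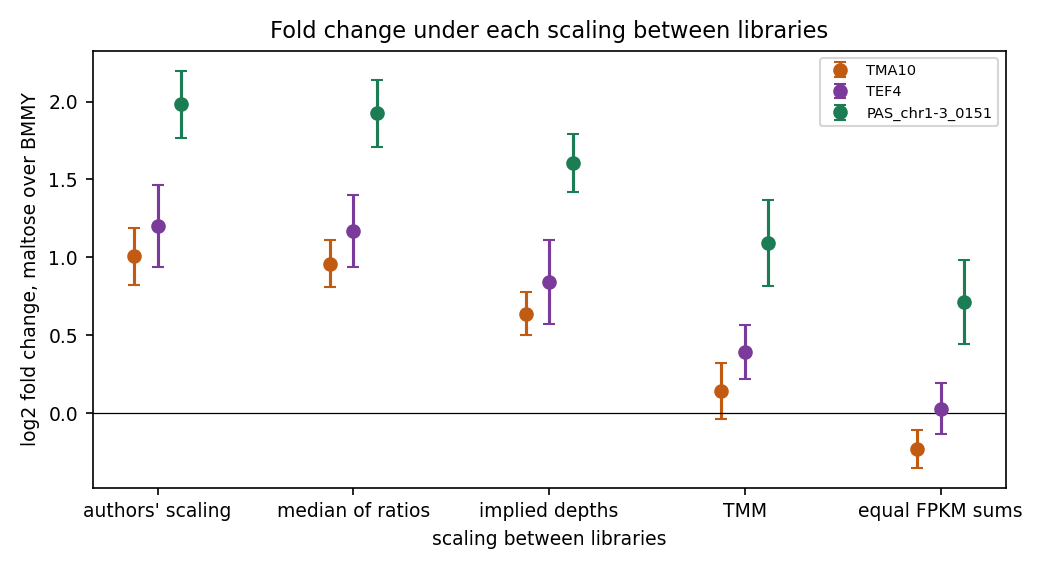
Log2 fold change, maltose over BMMY, of the 3 genes under 5 scalings between libraries; error bars are 1 SE of the edgeR fit. PAS_chr1-3_0151 stays between 0.71 and 1.98, while TMA10 runs between -0.23 and 1.01 and TEF4 between 0.029 and 1.20.

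The listed genes with the nearest profile differed for each of the 3. Nearness was the root-mean-square difference of log2 FPKM over the 6 libraries, each gene centred on its own mean. It therefore counts the size of the fold change as well as the pattern among replicates. All these genes were selected on the same libraries, so nearness is a description. For TMA10 the nearest were YMC2, named for a mitochondrial carrier (0.09), YDL114W, similar to acyl-carrier-protein reductases (0.097), and FBP1, the gluconeogenic fructose-1,6-bisphosphatase (0.12). FBP1 had 2172, 2106 and 2281 FPKM in maltose replicates 1, 2 and 3, against 1487, 1233 and 1219 FPKM in BMMY replicates 1, 2 and 3, with little spread within each medium, like TMA10.

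For TEF4 the nearest gene was FDH1, the formate dehydrogenase that ends the oxidation of methanol to carbon dioxide (0.075). FDH1 had 27077, 27319 and 29759 FPKM in maltose replicates 1, 2 and 3, against 21781, 12383 and 11058 FPKM in BMMY replicates 1, 2 and 3. As in TEF4, maltose replicate 3 was the highest library and BMMY replicate 1 lay far above the other BMMY libraries. The next were THI20, a thiamine synthesis kinase (0.11), and EBP1, an NADPH oxidoreductase (0.11), with the same high BMMY replicate 1.

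PAS_chr1-3_0151 had no gene as near, but its log2 fold change of 1.61 was above the median of 0.80 over the positive genes. Its closest was PAS_chr4_0064 (log2 fold change 2.13), which has no name or described function, at 0.32. That gene had 6792, 6834 and 5555 FPKM in maltose replicates 1, 2 and 3, against 1566, 1580 and 1249 FPKM in BMMY replicates 1, 2 and 3. THI4, the thiazole synthase of thiamine synthesis (0.37), and PAS_chr4_0915, of unknown function (0.38), followed. Among the 3 genes followed here, the difference was 0.33 between TMA10 and TEF4, 0.51 between TMA10 and PAS_chr1-3_0151 and 0.57 between TEF4 and PAS_chr1-3_0151. The median over the positive genes was 0.26 from TMA10, 0.23 from TEF4 and 0.54 from PAS_chr1-3_0151. TMA10 and TEF4 were thus farther apart than either median, while TMA10 was nearer to PAS_chr1-3_0151 than that gene's median.

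**Figure D5:**
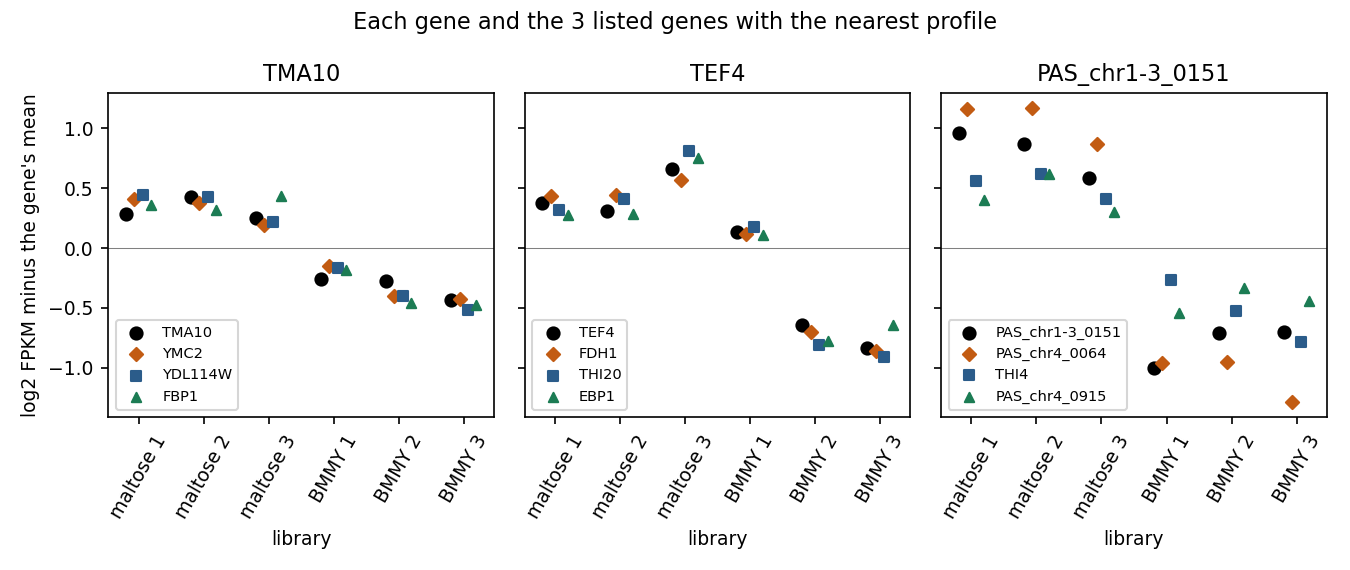
Log2 FPKM minus each gene's own mean, by library, for TMA10, TEF4 and PAS_chr1-3_0151 (black circles) and the 3 listed genes nearest to each (coloured symbols). BMMY replicate 1 sits well above the other BMMY libraries for TEF4 and its nearest genes, close to them for TMA10, and below them for PAS_chr1-3_0151.

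Few other genes of protein synthesis were among the 115. Of 11 keyword lists on translation and related functions, 7 had 0 members: cytosolic ribosomal proteins, mitochondrial ribosomal proteins, initiation, termination and recycling, tRNA charging, RNA polymerases I and III, and protein folding and stress. The lists for elongation, ribosome-associated proteins and ribosome biogenesis each held 1 gene, the one described above, called higher. The search read symbols and products and not domains. By domain, PAS_chr4_0417, named after its values were seen, holds the DnaJ domain of co-chaperones. It had 8.29, 7.79 and 6.70 FPKM in maltose replicates 1, 2 and 3, against 5.86, 3.73 and 3.59 FPKM in BMMY replicates 1, 2 and 3, a log2 fold change of 0.79 (SE 0.23). It is 1 of 5 genes in the KOG class of protein turnover and chaperones, TEF4 among them, of which 3 had positive and 2 negative fold changes in the authors' deposited table. The list for glutathione transferases held ustS (PAS_chr2-1_0748), matched by its Swiss-Prot name, while TEF4 was the 1 gene of the 115 with an annotated glutathione S-transferase domain. The gene ustS had 984, 1001 and 1169 FPKM in maltose replicates 1, 2 and 3, against 845, 509 and 545 FPKM in BMMY replicates 1, 2 and 3, a log2 fold change of 0.73 (SE 0.23). Whether genes absent from the 115 changed cannot be read from this selection.

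A further gene with a ribosome in its description was lower with maltose. PAS_chr1-4_0389, named after its values were seen, matches S. cerevisiae YLL032C, described as a protein that may interact with ribosomes. It had 4.90, 4.23 and 3.90 FPKM in maltose replicates 1, 2 and 3, against 10.2, 12.6 and 11.8 FPKM in BMMY replicates 1, 2 and 3. Its log2 fold change was -1.41 (SE 0.18). It too was selected on this contrast, and 56 of the 112 genes tested were called lower.

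In gene order, PAS_chr1-3_0151 lies near listed genes that moved in opposite directions. Of the 3 genes on either side of it, the second in one direction was TPN1, a vitamin B6 transporter, and the third in the same direction was ARO8, an aromatic aminotransferase by its symbol. TPN1 had 233, 198 and 205 FPKM in maltose replicates 1, 2 and 3, against 83.9, 37.2 and 32.7 FPKM in BMMY replicates 1, 2 and 3, and its highest BMMY library was replicate 1, the lowest for PAS_chr1-3_0151. ARO8 had 12.9, 14.4 and 15.2 FPKM in maltose replicates 1, 2 and 3, against 85.3, 67.7 and 99.6 FPKM in BMMY replicates 1, 2 and 3. For TMA10 and TEF4, 0 of the 3 genes on either side were listed.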

How the data were processed

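For each gene and library the authors deposited whole-number read counts and FPKM values, per the file headers, with a p-value and a log2 fold change of their own comparison. The test behind these was not given in the sources used here. CASAVA, HISAT2 2.2.1 and StringTie are named without roles, per the submitters' processing notes. Build, annotation and strand setting were not given in the sources used here.

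All 115 identifiers matched RefSeq assembly ASM2700v1, used for lengths and gene order. Depth was taken as count / (FPKM × length), at its median over the genes. edgeR 4.0.16 (R 4.3.3) fitted counts with these depths as library sizes, without TMM, for the 112 genes whose mean FPKM was 1 or more. P-values were adjusted by Benjamini-Hochberg over the 112. SE is the log2 fold change divided by the root of F. The authors' scaling was recovered to within 0.0034 (log2) over 92 genes. The fit was tested on simulated counts with the same dispersion for each gene. It called 0 of 72 unchanged genes, 19 of 20 at an absolute log2 fold change of 1 and 20 of 20 at 2. The real genes were all selected for a difference and vary in spread, so the simulation does not match them. limma 3.58.1 and DESeq2 1.42.0 served as alternatives, together with other scalings, filters, a replicate block and omission of each library.

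The 3 genes and the keyword lists were chosen with earlier results of these data known. Named genes are the 3, keyword matches, the 3 nearest profiles of each and listed neighbours within 3 genes; others are said to be chosen after their values were seen. Symbols come from the deposited Swiss-Prot annotation.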

Additional observations from a re-analysis of the deposited data

How the results depend on the processing

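All 3 genes kept positive log2 fold changes, except TMA10 with equal FPKM sums (-0.23). With TMM, TMA10 and TEF4 had log2 fold changes of 0.14 and 0.39 and did not pass edgeR's adjusted p of 0.05. TEF4 did not pass with equal FPKM sums either, at a log2 fold change of 0.029. Both scalings rest on the selected genes alone, as do median-of-ratios factors, with which TMA10 and TEF4 were at 0.96 and 1.17. With 1 library left out, TMA10 ran from 0.58 to 0.67, TEF4 from 0.66 to 1.19 and PAS_chr1-3_0151 from 1.52 to 1.71. TEF4 lost its call without maltose replicate 3 or BMMY replicate 2. The causes were not tested. PAS_chr1-3_0151 kept its call in the 15 alternatives that could be fitted. With a mean FPKM of at least 10 it was not tested, and calls lower fell to 31 of 83 genes tested, since fewer genes entered. Calls higher were 13 with TMM and 7 with equal FPKM sums, and 29 to 56 with 1 library left out (29 without BMMY replicate 2), against 49. A replicate block gave 0.64 for TMA10, 0.90 for TEF4 and 1.60 for PAS_chr1-3_0151 and changed no call of these. The labels do not say whether same-numbered libraries belong together. Deviations from the group means of same-numbered libraries correlated at -0.15, -0.023 and 0.039 over 112 genes. Of the maltose libraries, 0 of 3 correlated best with its own number. With 3 libraries per group and selected genes only, these values cannot exclude pairing. Of the 3 genes PAS_chr1-3_0151 had the fewest counts, 687 to 2775, with a counting error of at most 3.82%.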
